A study of Mus musculus with 4 samples.

Results

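The comparison set the fetal mouse brain after a short, complete loss of maternal food against the fetal mouse brain after a long, partial one. All 4 arrays of the series entered it, and 16741 of the 28104 genes on the array could be compared, because they had a probe well above background in both dye channels on every array. The samples were whole brains of C57BL/6J fetuses, and expression was read on 2-colour microarrays. In the food deprivation group (FD), dams had their food removed overnight on gestation day 17. In the food restriction group (FR), dams received 50% of the chow of controls from gestation day 10 to 17, and caesarean section followed on day 18, a day that the design text states for FR and leaves implicit for FD. Control dams ate freely. Per the design text, the RNA of 5 fetuses was pooled for each group, so each food shortage was represented by 1 pool. Every pool was hybridised with control RNA on 2 arrays with exchanged dyes. On array 1 of each pair the treated pool was labelled with Cy5, and on array 2 with Cy3. Whether the FD and the FR arrays received the same control RNA is not stated, so 4 RNA inputs are described: the FD pool, the FR pool, and the control input of each pair of arrays (FD control and FR control).

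When a pregnant mouse goes without food, the fetus draws on glucose, ketone bodies and amino acids that cross the placenta, and the late fetal brain can use ketone bodies as fuel. At this age neurons are being wired, and astrocytes and oligodendrocytes, which later supply neurons and wrap axons in myelin, are beginning to form. An overnight fast and a week on reduced rations therefore meet the brain over very different spans of its growth, and the series title names genes behind the developmental origins of health and disease as its aim.

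For each gene, the log2 ratio of treated over control on an FR array was subtracted from the log2 ratio on the FD array of the same dye orientation (FD 1 minus FR 1, orientation 1; FD 2 minus FR 2, orientation 2). A gene was counted as apart when both differences were at least 1.5-fold in the same direction. Both orientations hold the same extracts, so n = 1 pool per condition. No test was possible, the variation between litters or pools is unknown, and technical error is all that could be estimated. The SD of the mean of both orientations was 0.102 on the log2 scale over all genes, against an SD of 0.172 between genes, and 0 genes were past the rule in opposite directions. All arrays came from 1 slide. Of the 43379 non-control spots, between 69.8% and 84% were well above background in a given channel of a given array, and the median SD of repeated spots of a probe lay between 0.0846 and 0.0945. Neuron markers, the check on the labelled tissue, had mean log2 levels between 11.05 and 11.21 in the 4 inputs. Levels are given here as log2 channel signals, and they were compared between inputs within a probe, never between genes.

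In the difference of log2 ratios, 13 genes (0.0777% of those measured) lay higher after deprivation than after restriction, and 46 genes (0.275%) lay lower. A gene symbol was available for 49 of these 59. Set against their own controls under the same rule, 40 genes (0.239%) were apart in FD and 186 (1.11%) in FR. The labels do not state whether both comparisons share control RNA, so their lists are not correlated here. The control inputs of the FD and FR arrays were not alike in every gene. Between them, 23 genes (0.137%) were 1.5-fold apart in both orientations, with the array shift described below taken out. Among these, the FD control lay above the FR control by 2.64 and 3.05 for Fabp4 and by 2.43 and 2.26 for Myl1. Among the 46 lower genes, 22 were apart from control as lower in FD and not in FR, 10 as higher in FR and not in FD, 4 as higher in both, and 10 were not apart from control in either. Among the 13 higher genes, 7 were lower in FR and not in FD, 1 was higher in FD and not in FR, and 5 were apart from control in neither. The interferon-induced gene Rtp4 and the chaperone Hspa4 led the higher genes. Skeletal muscle genes, collagens, and the neutrophil proteins S100a9 and Csta1 were among the lower ones.

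**Figure D1:**
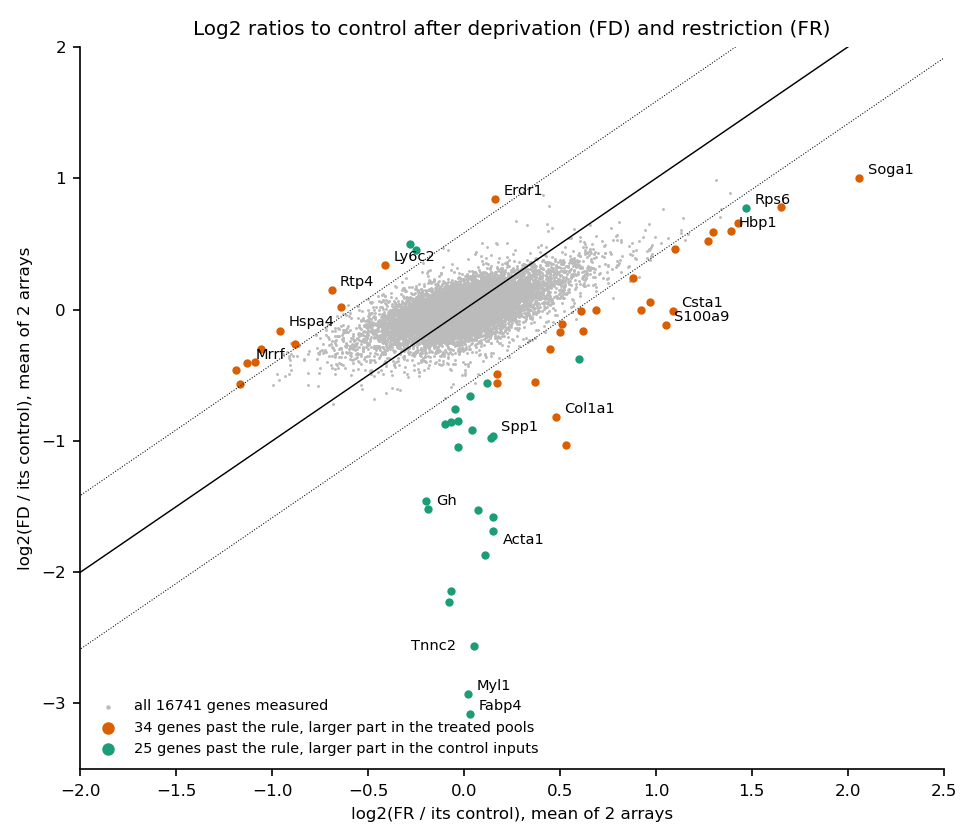
Mean log2 ratio to control in FD (vertical axis) against FR (horizontal axis) for all 16741 measured genes, each value the mean of 2 arrays; the solid line marks equal ratios and the dotted lines a 1.5-fold difference. Coloured points are the 59 genes apart in both orientations, 25 with the larger part of the difference in the control inputs and 34 with the larger part in the treated pools; a column of lower genes with FR ratios near 0 runs down to Fabp4 at a difference of -3.11.

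A difference of 2 ratios can come from the treated pools or from the control inputs, and the single-channel levels separate these parts. Among the lower genes, the larger part lay between the control inputs for 23 and between the FD and FR pools for 23. Among the higher genes, it lay between the control inputs for 2 and between the pools for 11. On the levels as normalised, 62 genes (0.37%) were 1.5-fold apart between the FD and FR pools, 7 higher and 55 lower, and 55 (0.329%) between the control inputs, 20 higher and 35 lower. In orientation 2 the median over all genes was -0.266 for the pools and -0.29 for the controls, a shift of whole arrays. With the median level of each array taken out, a step added after the data had been seen, 50 genes (0.299%) were apart between the pools, 23 higher and 27 lower in FD. Between the controls, 23 genes (0.137%) were then apart, 18 higher and 5 lower on the FD arrays. All levels below have this shift taken out, and it does not touch the ratios.

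**Figure D2:**
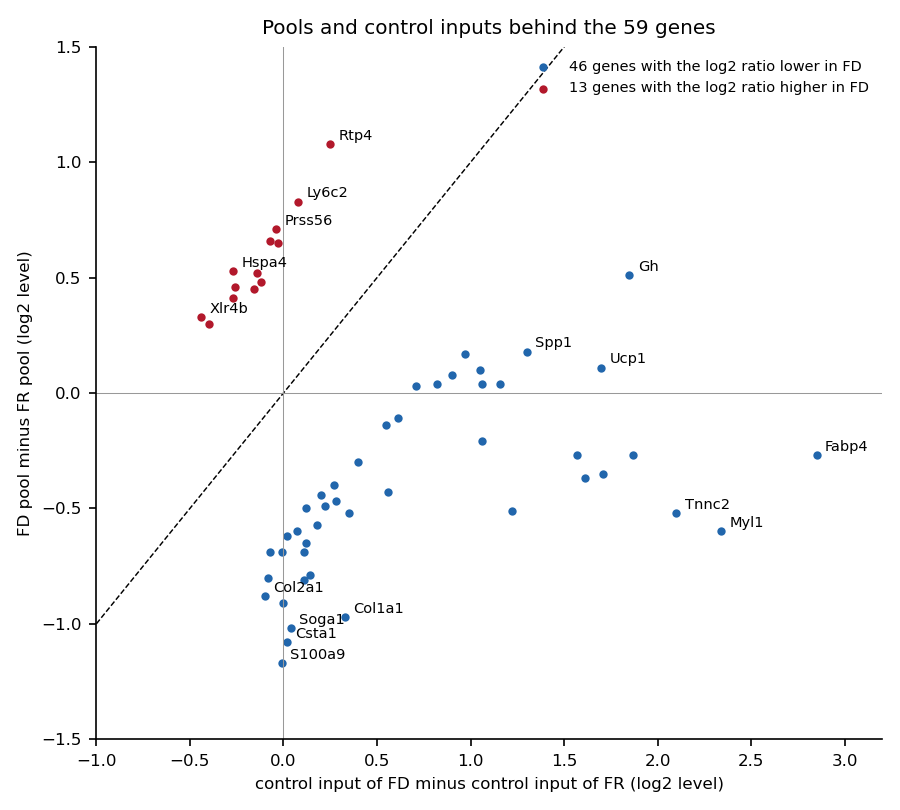
Log2 level of the FD pool minus the FR pool (vertical axis) against the control input of the FD arrays minus that of the FR arrays (horizontal axis) for the 59 genes, each value the mean of 2 orientations; the dashed line marks equal differences, at which the ratios would not differ. Muscle, fat and hormone genes stretch to the right, up to 2.85 for Fabp4, whereas S100a9, Csta1 and Soga1 lie near 0 on the horizontal axis and at or below -1.02 on the vertical one.

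Among genes with a symbol, the longest distances belonged to markers on the skeletal muscle, fat and pituitary lists. The tissue that this RNA came from was not tested. Fabp4, which carries fatty acids inside adipocytes, had log2 levels of 6.67 and 7.04 in the FD pool on arrays 1 and 2, 7.18 and 7.07 in the FR pool, and 7.25 and 6.94 in the control input of the FR arrays. Its level in the control input of the FD arrays was 9.89 and 9.99. That input alone was high, and the other 3 lay between 6.67 and 7.25. The log2 ratio differed by -3.15 and -3.08, or 8.65-fold (probe at chr3:10204452-10204511, build mm9; the array files do not state exon or UTR). A second probe of Fabp4 gave -2.81. Myl1, a light chain of fast muscle myosin, showed the same order. Its levels were 7.69 and 7.82 in FD, 8.35 and 8.36 in FR, 8.34 and 8.33 in the FR control, and 10.77 and 10.59 in the FD control. Here the FD pool lay below the FR pool in both orientations, by -0.66 and -0.54, while the controls differed by 2.43 and 2.26. The Myl1 ratio was 7.68-fold apart.

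Of 42 measured skeletal muscle markers, 36 lay below 0 in both orientations, against 29.6% of all genes, 12 were past the rule as lower and 0 as higher. The list median was -0.25 (-0.25 and -0.31 by orientation), against 0.0024 over all genes. Between the controls the list median was 0.39, and between the pools -0.01. The fast-muscle subunits of the troponin complex, which makes contraction depend on calcium, gave -2.62 for Tnnc2, -2.15 for Tnni2 and -0.82 for Tnnt3. The slow and cardiac forms Tnnt1 (-0.59), Tnnc1 (-0.22), Tnnt2 (-0.21) and Tnni1 (0 to 2 decimals) were not past the rule. The myosin light chain Mylpf gave -2.06, the calcium pump regulator Sln -1.98 and skeletal actin Acta1 -1.84. Myosin heavy chains of the embryonic (Myh3, -1.73) and perinatal (Myh8, -1.26) forms were past the rule, and so was Myh4 of adult fast fibres (-0.77), although a second Myh4 probe gave -0.02. The muscle regulators Myod1 (-0.02) and Myf6 (0.08) did not follow. The enolase of muscle, Eno3, stood apart from this order, with levels of 9.31 and 9.51 in FD and 9.66 and 9.97 in FR, against 9.64 and 9.53 in the FD control and 9.40 and 9.23 in the FR control. Its larger part lay in the pools.

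Among 13 measured genes of brown fat and adipocytes, 3 were past the rule as lower and 0 as higher, and the list median was -0.02. They were Fabp4, the uncoupling protein Ucp1 that lets brown fat make heat (-1.59), and the carbonic anhydrase Car3 (-1.11). Of 13 pituitary markers, 2 were past the rule, and the list median was 0.09. Growth hormone (Gh) had levels of 6.21 and 6.67 in FD, 6.23 and 5.62 in FR, 6.18 and 6.05 in the FR control, and 7.77 and 8.15 in the FD control. Pomc, the precursor of corticotropin and the melanocortins, had 9.02 and 8.75 in FD, 8.92 and 8.77 in FR, 8.86 and 8.89 in the FR control, and 9.98 and 9.90 in the FD control. For both hormones the FD control stood alone and the pools did not separate in both orientations. Pomc was also the 1 member past the rule on the list of appetite and neuroendocrine peptides, whose median was 0.07. Of the 46 lower genes, 17 were also past the rule between the control inputs, with the FD control higher, and 11 between the pools; none was in both counts. A dissection that carried more neighbouring tissue into one control pool was not tested, and it cannot be told apart from a difference between control litters.

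**Figure D3:**
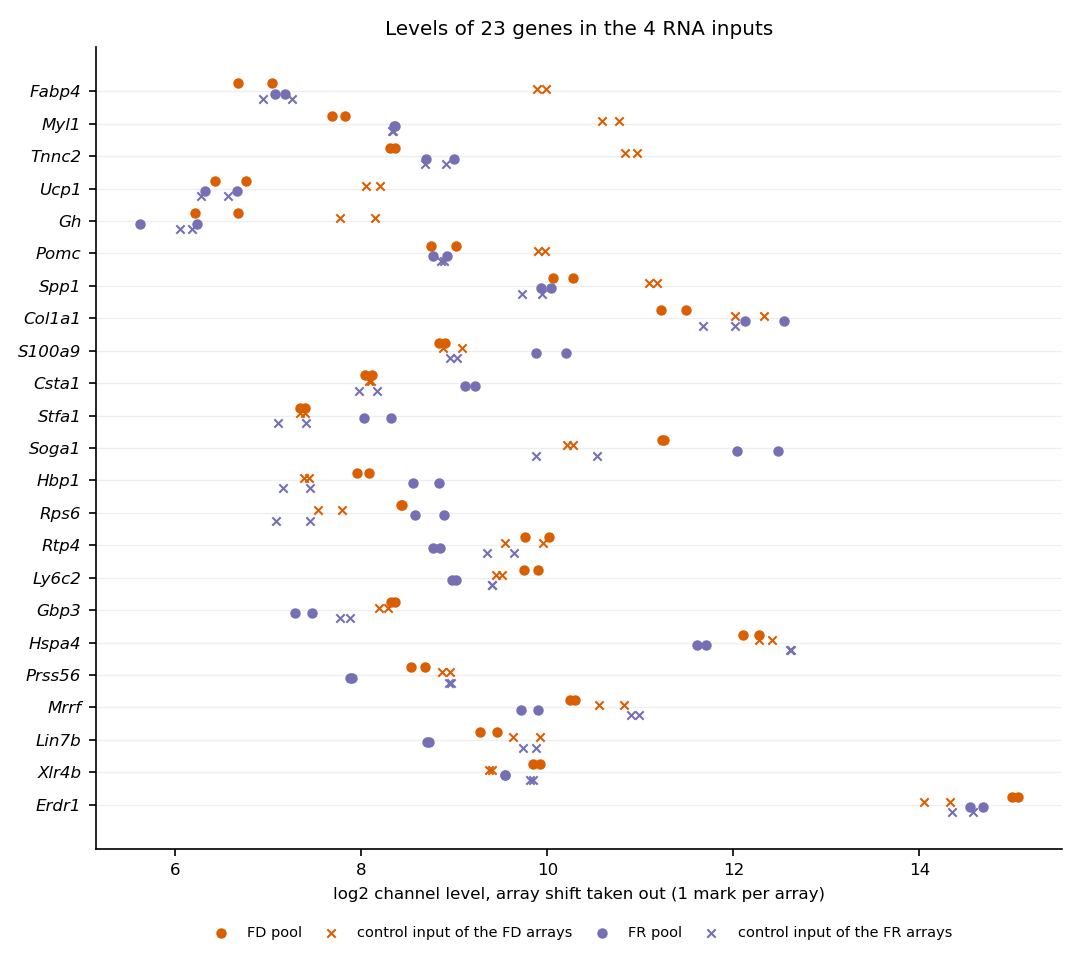
Log2 channel levels of 23 genes in the FD pool, the FR pool and the control input of each pair of arrays, 1 mark per array. From Fabp4 to Spp1 the control input of the FD arrays stands to the right of the other 3 inputs; for S100a9, Csta1 and Stfa1 the FR pool stands alone on the right, and for Rtp4, Ly6c2, Gbp3, Hspa4 and Prss56 it lies on the left.

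Bone and cartilage genes were lower in FD relative to FR with parts in both places. Of 19 measured markers, 18 lay below 0 in both orientations, against 29.6% of all genes. Of the 19 markers, 4 were past the rule as lower and 0 as higher, and the median was -0.25 (-0.21 and -0.22). Their median was -0.06 between the pools and 0.15 between the controls. Col1a1, the main collagen of bone, skin and meninges, had log2 ratios of -0.84 and -0.79 in FD and 0.45 and 0.52 in FR, so that the signs opposed on all 4 arrays. Its levels were 11.49 and 11.22 in the FD pool, 12.12 and 12.54 in the FR pool, 12.33 and 12.02 in the FD control and 11.67 and 12.02 in the FR control. The FD pool was the lowest of the 4 inputs on both arrays, and the FR pool was above its own control. Of its other probes, one gave -0.97 and one, near background, -0.04. Col2a1, the collagen of cartilage, was high in the FR pool alone, at 9.97 and 10.11, against 9.22 and 9.12 in FD, 9.30 and 9.34 in the FD control and 9.36 and 9.48 in the FR control. Its second probe gave -0.96. Spp1 (osteopontin, -1.12) was instead highest in the FD control, at 11.18 and 11.09, with the other inputs between 9.73 and 10.28. The bone sialoprotein gene Ibsp (-0.99) was dim, and its pools differed by -0.94 in orientation 1 and 0.07 in orientation 2.

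Neutrophil genes set the FR pool apart. S100a9, a calcium-binding alarm protein that fills the cytosol of neutrophils, had levels of 9.88 and 10.20 in the FR pool, 8.84 and 8.90 in the FD pool, 9.08 and 8.88 in the FD control, and 9.03 and 8.95 in the FR control. Only the FR pool was high, and the other 3 inputs lay between 8.84 and 9.08. Its ratio differed by -1.10 and -1.23, or 2.24-fold (probe at chr3:90496585-90496644, mm9). Csta1, a stefin that inhibits cysteine proteases, had 9.22 and 9.11 in FR against values between 7.98 and 8.17 in the other inputs. The related stefins Stfa1 (-0.92) and Cstdc5 (-0.91) were past the rule too. The stefin genes lie together on chromosome 16, and probes for near-identical members may share signal. Of 12 measured neutrophil markers, 9 lay below 0 in both orientations and 1 above, against 29.6% and 32.1% of all genes. Of the 12 markers, 4 were past the rule as lower, and the median was -0.43 (-0.43 and -0.42). The medians of the log2 ratios were 0.46 in FR and 0 to 2 decimals in FD. S100a8, the partner of S100a9, gave -0.65, without passing. The granule proteins of younger neutrophils did not go along, with Mpo at -0.11, Prtn3 at -0.06 and Ctsg at 0.06, and the protease Mmp9 gave -0.02. Microglia and macrophage markers lay the other way, with a median of 0.17. In bulk tissue, more cells of a type and more RNA per cell cannot be told apart. With the background model fitted on all spots, bright patch of FR array 2 included, S100a9 gave -0.68 and Csta1 -0.60, and neither was past the rule.

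**Figure D4:**
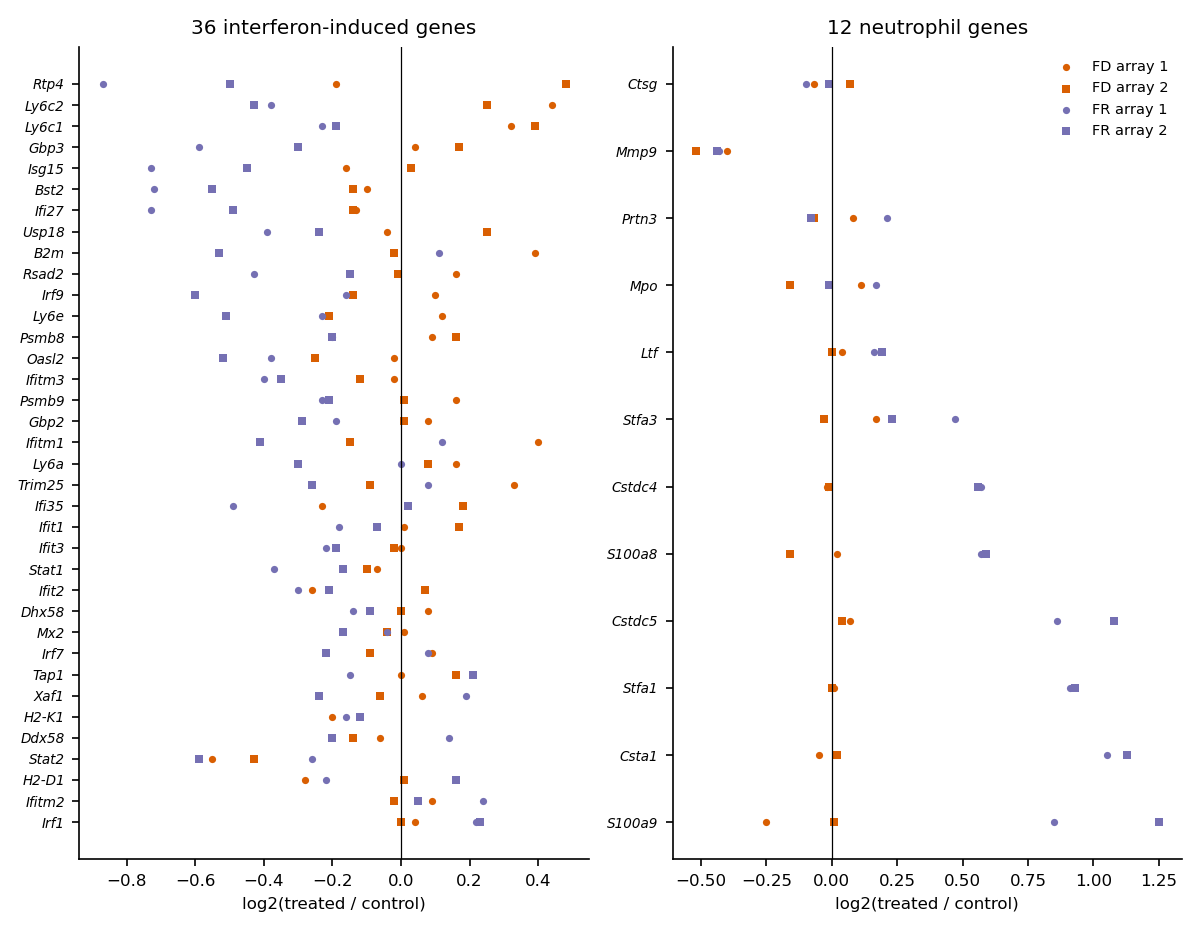
Log2 ratio to control on each of the 4 arrays for 36 interferon-induced genes (left) and 12 neutrophil genes (right), ordered by the FD minus FR difference; circles are array 1 and squares array 2 of each pair. In the upper rows on the left the FR marks lie to the left of the FD marks, as for Ly6c2 at -0.38 and -0.43 in FR against 0.44 and 0.25 in FD; in the lower rows on the right the FR marks lie far to the right, up to 1.25 for S100a9.

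A further set lay above control after both food shortages, and further above after restriction. Soga1, whose product is linked to the control of autophagy, had log2 ratios of 1.05 and 0.95 in FD and 2.16 and 1.95 in FR. Its levels were 11.25 and 11.23 in the FD pool, 12.04 and 12.48 in the FR pool, and between 9.88 and 10.53 in both controls, so the order FR, FD, control held on both arrays. A second, dimmer probe gave 0.23 in FD and 0.79 in FR. Hbp1, a transcriptional repressor that slows the cell cycle, had ratios of 0.57 and 0.64 in FD and 1.39 and 1.40 in FR. 1700093K21Rik had 0.64 and 0.67 in FD and 1.40 and 1.46 in FR. Rps6, a protein of the small ribosomal subunit, had 0.65 and 0.89 in FD and 1.44 and 1.49 in FR, and its larger part lay in the controls. It was the only one of 50 measured cytosolic ribosomal protein genes past the rule, and the median of that list was 0.06. When the background was fitted on all spots, the differences were -0.78 for Soga1, -0.15 for Hbp1, -0.07 for 1700093K21Rik and -0.01 for Rps6. Hbp1 and 1700093K21Rik are named here after their values were seen.

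In several of the genes that stood higher after deprivation, the FR pool was the lowest of the 4 inputs. Hspa4, a nucleotide exchange factor that works with Hsp70 chaperones, had ratios of -0.13 and -0.18 in FD and -1.0 and -0.92 in FR. Its levels were 12.27 and 12.10 in the FD pool, 11.61 and 11.70 in the FR pool, 12.41 and 12.28 in the FD control, and 12.61 and 12.62 in the FR control. The FR pool was the lowest of the 4 inputs, and its control the highest. The difference was 1.75-fold (probe at chr11:53073347-53073406, mm9). Other, dimmer probes of Hspa4 gave 0.18 and -0.24, and the median of its probes was not past the rule. The serine protease Prss56 had levels of 7.90 and 7.88 in FR against 8.68 and 8.53 in FD, with the controls between 8.87 and 8.96. Lin7b, a scaffold protein of synapses and cell junctions, had 8.73 and 8.71 in FR and 9.46 and 9.28 in FD, with controls between 9.63 and 9.92. In these genes both pools were below control, and FR was further below.

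The same order held for 2 genes that serve mitochondria and for Rnf32. Mrrf, which recycles mitochondrial ribosomes, had ratios of -0.57 and -0.25 in FD and -1.18 and -1.08 in FR. Bcs1l, an assembly factor of respiratory complex III, had -0.28 and -0.25 against -0.87 and -0.89. The ubiquitin ligase gene Rnf32 had -0.56 and -0.59 against -1.16 and -1.19. Second probes gave smaller differences of the same sign for Mrrf (0.38), Rnf32 (0.36) and Prss56 (0.28), and with the median over probes these genes were no longer past the rule. The cationic amino acid transporter Slc7a3 lay at 0.08 and -0.05 in FD and at -0.52 and -0.76 in FR, and neither ratio was past the rule. Among the 13 higher genes, Erdr1 was the one past the rule over control in FD and not in FR. Its levels were 15.06 and 14.99 in the FD pool, 14.68 and 14.54 in the FR pool and between 14.05 and 14.57 in the controls; the array files give its probe no position. The X-linked genes Xlr4b (0.78) and Xlr3c (0.70), members of a lymphocyte-regulated family with near-identical copies, were above control in FD and below it in FR. Xlr4b was at 9.85 and 9.92 in the FD pool and 9.55 on both arrays in the FR pool, whereas the FD control was at 9.37 and 9.40 and the FR control at 9.81 and 9.85. For both Xlr genes the controls differed more than the pools. With the background fitted on all spots, Hspa4 and Xlr4b were the named higher genes still past the rule. Among those that were not, Lin7b gave 0.26, Bcs1l 0.28, Prss56 0.27 and Rnf32 0.14.

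Interferon-induced genes, which cells switch on against viruses and which are also carried by microglia and vessels at rest, lay higher in FD than in FR as a group. Of 36 measured members, 28 lay above 0 in both orientations, against 32.1% of all genes, and 3 below. The list median was 0.27 (0.26 and 0.24), 2 members were past the rule as higher and 0 as lower. The median log2 ratio was 0.01 in FD and -0.21 in FR. Between the pools the list median was 0.39 and between the controls 0.16, so the controls of the FD arrays were higher too. Rtp4, a receptor transporter protein induced by interferon, had levels of 9.76 and 10.02 in the FD pool, 8.77 and 8.85 in the FR pool, 9.95 and 9.54 in the FD control and 9.64 and 9.35 in the FR control. The FR pool was the lowest input on both arrays and overlapped none of the others. Its ratio in FD changed sign with the dye, at -0.19 and 0.48, and the difference from FR was 0.69 and 0.97, or 1.78-fold (probe at chr16:23613668-23613727, mm9). Ly6c2, a surface protein of monocytes and endothelium, had 9.90 and 9.75 in FD, 9.02 and 8.97 in FR, and between 9.40 and 9.51 in the controls. FD lay above both controls and FR below them. Its neighbour Ly6c1, of endothelium, lay at 0.57 and did not pass; the copies are alike and their probes may share signal. The guanylate-binding protein Gbp3 gave 0.55, the ubiquitin-like modifier Isg15 0.52, the virus-tethering protein Bst2 0.51 and the light chain of MHC class I, B2m, 0.39; the last 3 were picked after their values were seen. Members that went the other way were the transcription factor Irf1 (-0.21), Ifitm2 (-0.11) and H2-D1 (-0.11). Rtp4 gave 0.62 and Ly6c2 0.57 with the background fitted on all spots, where neither was past the rule, and the list median over all alternatives ran from 0.12 to 0.41.

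Upstream sequence is shown for 4 of these genes because 28 of 36 members lay on one side and the known control element of the group is short. These 4 had the largest differences among members whose window held the core of that element, so all 4 hold it by choice. In the 250 bases before the start of the gene (RefSeq, build GRCm38.p6, 5′ to 3′ on the strand of the gene), capitals mark GAAANNGAA, the core of the interferon-stimulated response element, on either strand; overlapping matches run together. Gbp3 is at chr3:142559794-142560043 (plus strand), Isg15 at chr4:156200819-156201068 (minus), Bst2 at chr8:71537473-71537722 (minus) and B2m at chr2:122147437-122147686 (plus).
Gbp3: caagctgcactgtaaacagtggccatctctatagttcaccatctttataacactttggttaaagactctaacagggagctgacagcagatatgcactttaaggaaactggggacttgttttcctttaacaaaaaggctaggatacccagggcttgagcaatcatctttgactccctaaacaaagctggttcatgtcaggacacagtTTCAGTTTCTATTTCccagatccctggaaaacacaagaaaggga
Isg15: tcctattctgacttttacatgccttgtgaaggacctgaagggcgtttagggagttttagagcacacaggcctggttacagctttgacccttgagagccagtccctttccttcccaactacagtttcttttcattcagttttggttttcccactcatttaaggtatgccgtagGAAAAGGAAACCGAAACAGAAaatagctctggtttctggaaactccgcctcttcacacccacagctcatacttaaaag
Bst2: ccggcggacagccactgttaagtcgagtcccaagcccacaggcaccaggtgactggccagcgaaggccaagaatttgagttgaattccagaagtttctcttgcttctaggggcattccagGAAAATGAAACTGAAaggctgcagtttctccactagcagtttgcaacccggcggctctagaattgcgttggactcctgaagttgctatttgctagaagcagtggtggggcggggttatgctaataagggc
B2m: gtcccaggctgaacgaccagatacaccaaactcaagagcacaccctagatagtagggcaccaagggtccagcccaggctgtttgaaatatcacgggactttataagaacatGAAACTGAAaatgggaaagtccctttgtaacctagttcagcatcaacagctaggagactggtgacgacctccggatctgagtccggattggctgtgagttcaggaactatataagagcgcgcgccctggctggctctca
The first match began 44 bases before the start in Gbp3, 78 in Isg15, 130 in Bst2 and 139 in B2m. An upstream window was listed for 28 of the 36 measured members, and 11 of these held the core (39.3%), against 2211 of 27025 genes with a window (8.18%). Ly6c1, Ly6c2 and Irf9 had a window without those letters, and a window for Rtp4 was not used here. A match describes the letters and says nothing of whether the element was bound.

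Genes of ketone body use and synthesis had the next highest median, 0.18 (0.17 and 0.24). Of 11 measured, 9 lay above 0 in both orientations and 0 below, against 32.1% and 29.6% of all genes, and 0 passed. Oxct1, the enzyme that commits ketone bodies to oxidation, had levels of 14.96 and 14.75 in the FD pool, 14.20 and 14.10 in the FR pool, 15.19 and 15.04 in the FD control and 14.79 and 14.89 in the FR control. The FR pool was lowest on both arrays, and both pools lay below their controls. The monocarboxylate transporter Slc16a7, which brings ketone bodies and lactate into neurons, had 7.90 and 8.01 in FD, 7.46 and 7.49 in FR and between 8.29 and 8.40 in the controls. Its difference of 0.53 was the highest of the list. The lactate exporter Slc16a3 gave 0.42. The endothelial and glial transporter Slc16a1 gave 0.12. The median log2 ratio of the list was -0.1 in FD and -0.25 in FR. Genes of fatty acid oxidation had a median of 0.08, and those of glycolysis, glucose transport and hypoxia of 0.05.

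**Figure D5:**
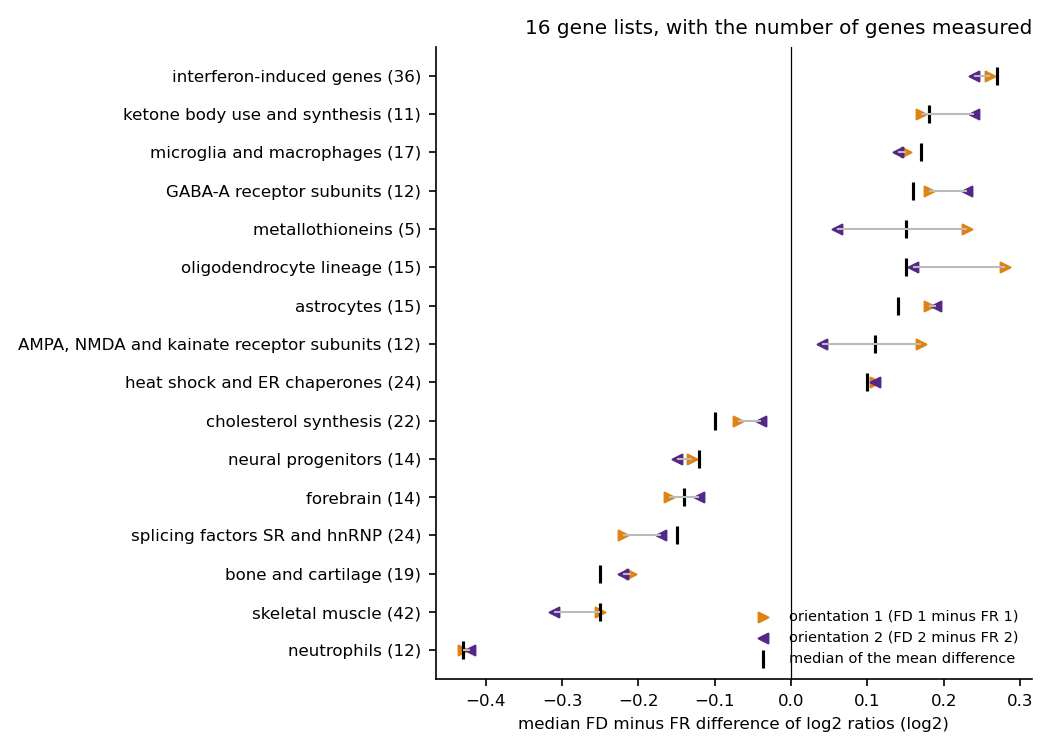
Median FD minus FR difference of log2 ratios for the 16 gene lists with a median of at least 0.1 in size and one sign in both orientations; triangles give each orientation, the bar the median of the genes' mean differences, and brackets the number of genes measured. The medians run from -0.43 for neutrophils to 0.27 for interferon-induced genes; a median of means need not lie between the medians of both orientations.

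List medians of the ratios of receptor genes of both fast transmitter systems lay higher in FD than in FR, with the parts placed differently. Of 12 measured GABA-A receptor subunits, 8 lay above 0 in both orientations and 0 below, against 32.1% and 29.6% of all genes. The median of the subunits was 0.16 (0.18 and 0.23), and 0 passed. Gabrb1 had levels of 9.80 and 9.75 in the FD pool, 9.36 and 9.47 in the FR pool, 9.89 and 9.93 in the FD control and 10.01 and 10.17 in the FR control. The FR pool was the lowest input. Between the pools the list median was 0.25 and between the controls 0.01. Gabrg1, of the same gene cluster, gave 0.39. Gabra2 gave 0.33, and -0.05 with the background fitted on all spots. Of its other probes, one of similar brightness gave -0.16 and a dimmer one 0.07. Of 12 subunits of AMPA, NMDA and kainate receptors, 7 lay above 0 in both orientations and 1 below, with a median of 0.11 (0.17 and 0.04), and 0 passed. Their median was 0.02 between the pools and -0.09 between the controls, and the mean level was 8.50 in FD and 8.51 in FR. Over all alternatives the median difference of this list ran from 0.01 to 0.23, and that of the GABA-A list from 0.08 to 0.34. Grik1 gave 0.31, of which 0.01 lay between the pools and -0.31 between the controls. Of the others, Grin2c gave 0.26 and Gria2 0.12, whereas Grik4 gave -0.15; Gria1 gave -0.15 with opposite signs in the orientations (-0.33 and 0.03). Synaptic scaffold, vesicle and adhesion genes had a median of 0.03, with Lin7b as the member past the rule.

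Glial markers lay on the same side. Of 15 oligodendrocyte lineage genes, 12 lay above 0 in both orientations and 0 below, against 32.1% and 29.6% of all genes. The median of this list was 0.15 (0.28 and 0.16). Gpr17, a receptor of immature oligodendrocytes, gave 0.54, but its pools differed by 0.13 and its controls by -0.42. The myelin genes Cnp and Mbp gave 0.41 and 0.38, with 0.30 and 0.50 between the pools, whereas Mag (-0.08), Mobp (-0.03) and Cldn11 (0.02) of the same list lay near 0. Of 15 astrocyte genes, 11 lay above 0 in both and 1 below, with a median of 0.14 (0.18 and 0.19). S100b gave 0.58, the neurotensin receptor Ntsr2 0.44 and the filament protein Gfap 0.38. Second, dimmer probes gave smaller differences for Ntsr2 (0.14) and Gfap (0.15). S100b had 10.19 and 10.11 in FD, 9.47 and 9.74 in FR and between 10.05 and 10.11 in the controls. Of 17 microglia and macrophage genes, 12 lay above 0 in both and 2 below, with a median of 0.17 (0.15 and 0.14), and the members ran from -0.05 to 0.26. No gene of the oligodendrocyte, astrocyte or microglia list was past the rule in the difference of ratios. Between the pools, the astrocyte genes Gfap (0.71) and Aqp4 (0.73) were past it. Their controls differed in the same direction, by 0.34 and 0.37.

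Genes of dividing precursors and of the forebrain lay the other way. Of 14 neural progenitor markers, 9 lay below 0 in both orientations and 0 above, against 29.6% and 32.1% of all genes. The median of this list was -0.12 (-0.13 and -0.15). The signalling receptor Notch1 gave -0.41, with -0.66 and -0.15 by orientation. Neurog2, which drives cortical neurogenesis, gave -0.40, with levels of 8.14 and 8.26 in FD, 8.58 and 8.75 in FR and between 8.39 and 8.53 in the controls. FD lay below and FR above the controls. Of 14 forebrain markers, 10 lay below 0 in both and 1 above, with a median of -0.14 (-0.16 and -0.12). The share of forebrain in a dissected brain was not tested. Dbx1, a transcription factor of ventral progenitors, was past the rule at -0.69, with 8.67 and 8.48 in FR and between 7.78 and 7.98 in the other inputs. The mean level of the hindbrain and spinal cord list was 7.55 in FD and 7.67 in FR, and its median difference was 0.01.

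RNA processing and sterol genes were the remaining lists with a median below 0. Of 24 SR and hnRNP splicing factors, 15 lay below 0 in both orientations and 3 above, with a median of -0.15 (-0.22 and -0.17) that became 0.04 under median centring. Ptbp2, a splicing regulator of developing neurons, gave -0.65, with 9.05 and 9.10 in FD, 9.82 and 9.87 in FR, 8.85 and 8.87 in the FD control and 8.77 and 9.19 in the FR control. Srsf5 gave -0.53 and Srsf6 -0.52, and 0 members passed. On the list of cold-inducible RNA-binding proteins 3 genes were measured, Rbm3 (-0.27), Srsf5 (-0.53) and Rbmx (0.04). Rbm3 had ratios of 0.61 and 0.92 in FD and 0.93 and 1.14 in FR, so its brightest probe was above control in both. A second, much dimmer probe had mean ratios of -0.18 in FD and -0.14 in FR. Of 22 cholesterol synthesis genes, 10 lay below 0 in both and 6 above, against 29.6% and 32.1% of all genes, with a median of -0.10 that became 0.06 under median centring. The medians of the ratios were -0.23 in FD and -0.22 in FR, so both pools lay below control to a like extent. Heat shock and ER chaperones had a median of 0.10 over 24 genes, 13 above 0 in both orientations and 6 below, with Hspa4 as the member past the rule, and the median was -0.03 with the background fitted on all spots. Of 5 metallothionein genes and regulators, 3 lay above 0 in both, with a median of 0.15 (0.23 and 0.06); Mt3 gave 0.40 and Mt1 0.16, and the metal-sensing factor Mtf1 -0.21. The other 35 lists with at least 5 measured genes had medians between -0.09 and 0.09, the glucocorticoid, insulin, circadian and imprinted gene lists among them.

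The rule has an edge, and its neighbours looked alike. Just inside on the higher side were Rnf32 (0.599 and 0.596 by orientation) and Bcs1l (0.586 and 0.644), and just outside were 1700001L19Rik (0.573 and 0.621) and Tmco3 (0.628 and 0.57). On the lower side Gpd1 (-0.772 and -0.598) and Eno3 (-0.587 and -0.756) were inside, and Armcx5 (-0.579 and -0.659) and Cacng1 (-0.575 and -0.61) outside. Another measured probe existed for 13 of the 49 genes with a symbol. Of these 16 probes, 14 had the sign of the brightest one and 5 were past the rule themselves.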

How the data were processed

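Fluorescence intensity per spot, the log10 ratio of red over green and the flags for signals well above background were used as deposited by the authors, who scanned the arrays with Agilent Feature Extraction 9.5.3.1 per the file headers. The authors' value table on the log2 scale equalled the scanner's treated over control ratio (r = 1 on each array), with column medians of -0.03, 0.03, -0.03 and 0.01. It was not centred further, and how dim spots were treated in it is unknown.

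Mean signals were background-corrected in limma 3.58.1 (R 4.3.3; normexp, offset 50, without spots whose local background was over 2 times the array median, which were 3, 0, 0 and 44 per array) and loess-normalised within arrays. Channel levels were scaled with Aquantile. The number of arrays limits the precision. Of 41174 probes, 23377 were measured on all arrays, and the brightest stood for its gene. Names came from RefSeq (GRCm38.p6) by accession for 26918 probes, by symbol for 5082 and by older symbol for 817, while 8357 kept the file's name. Named genes were up to 15 per direction past the rule with a symbol (12 higher and 15 lower), up to 4 members per list by absolute difference, up to 8 per direction also apart between the pools, up to 6 per direction with opposite signs on all 4 arrays, and up to 4 per direction seen in 1 pool. Other members (among them Tnnt3, Myh4, Eno3, Myod1, Myf6, Mpo, Prtn3, Ctsg, Mmp9, Slc16a1, Gria2, Grik4, Irf1, Ifitm2 and H2-D1) were named after their values were seen. The members and lists were chosen with earlier results of these data known, and the 16 lists described were picked after their medians were seen. The script was tested on simulated data. Alternatives were the scanner ratio, the value table, centring, background, filter, probe choice, fold and each orientation left out. Some genes are not reported here.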

Additional observations from a re-analysis of the deposited data

Results flagged for a closer look

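A gene or list is given here because its log2 ratios to control had one sign on both FD arrays and the opposite sign on both FR arrays. Of the measured genes with a gene symbol, 480 did so with FD above and FR below control and 354 the other way. Measured genes with or without a symbol numbered 16741. The rule uses signs alone and sets no minimum size, so ratios close to the control level count too. How many genes would meet it through technical error alone was not estimated. In each case the difference was not tested, since there was 1 pool per condition.

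Above control in FD and below it in FR were Ly6c2 (FD minus FR difference of log2 ratios 0.75), Xlr4b (0.78), Xlr3c (0.70), Ly6c1 (0.57), the calcitonin gene Calca (0.54) and the small heat shock protein gene Hspb3 (0.51). Calca reached 0.43 and 0.04 in FD and -0.01 and -0.60 in FR, so 1 array of each pair lay near 0, and its other probe gave a difference of 0.06. Below control in FD and above it in FR were Col1a1 (-1.30), Ibsp (-0.99), the basement membrane proteoglycan gene Hspg2 (-0.58), the chromatin remodelling subunit Smarce1 (-0.57), the transcription factor Tfap2c (-0.49) and the corepressor Bcor (-0.48). Other probes of Bcor gave -0.01 and -0.15, the first with ratios of -0.05 in FD and -0.04 in FR and so without opposite signs. Other probes of Col1a1 gave -0.97 and -0.04. Col1a1 and Ibsp were past the 1.5-fold rule, as were Ly6c2, Xlr4b and Xlr3c.

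Among the lists, the array medians had opposite signs for astrocytes (median difference 0.14), microglia and macrophages (0.17), mitochondrial ribosomal proteins (0.05), bone and cartilage (-0.25) and the insulin and IGF axis with FoxO and mTOR (-0.04). For the insulin list, the medians of the genes' mean ratios did not differ, at -0.02 in FD and -0.02 in FR.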

How the results depend on the processing

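No paired analysis was possible because each condition was 1 pool, and arrays with the same number share only the dye orientation. Against 59 genes apart (13 higher, 46 lower), the scanner's own log ratio and the authors' value table each gave 259 (135 and 124, all 59 included), median centring gave 36 higher and 29 lower, and the background model on all spots gave 28 (2 and 26). Brighter genes alone gave 35, 22 of them lower, and a 2-fold rule gave 19 (0 and 19). Leaving out the genes listed for tissues next to the brain gave 34, 21 of them lower. With 1 orientation left out the count lay between 124 and 187 (44 to 47 higher, 80 to 140 lower). Between the pools, the all-spots model gave 17 genes, the 2-fold rule 4 and a single orientation 181 to 2772. Between the controls, median centring gave 24, the all-spots model 22, the 2-fold rule 9, the array shift taken out 23 and a single orientation 312 to 2318. Signs reversed for the cholesterol list (0.06) and splicing list (0.04) under median centring, for the chaperone list (-0.03), Mtf1 (0.04) and Gabra2 (-0.05) with the all-spots model, for Rbmx between the single orientations (-0.06 and 0.13, without replicates 1 and 2), and for Gria1 under median centring (0.03) and between the single orientations (0.03 and -0.33). Of the 49 genes with a symbol, 25 were no longer past the rule with the all-spots model, 12 with median centring, 7 with the median of probes and 31 with the 2-fold rule. Dim signals limit the folds, since the offset pulls them toward 1.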

Other observations

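Some probes were well above background in one treated pool and not in the other, so only a bound can be given: the mean of the bright pool against the higher of its dim signal and the lowest signal well above background. Of the 41174 probes on the array, 19 (of 10 genes) were so in FD and not FR. One of them was past 1.5-fold, Pdss2, a subunit of the enzyme that makes the side chain of coenzyme Q, at least 1.74-fold higher in FD. Its control inputs differed in the same way, with both arrays of the FD control and neither of the FR control well above background. In FR and not FD there were 553 probes of 449 genes, and 4 probes were past 1.5-fold. The FR arrays had more spots well above background in both channels. On arrays 1 and 2 the shares were 83.4% and 73.5% in the FR pool, against 78% and 72.5% in the FD pool. They were 74.4% and 84% in the FR control, against 69.8% and 80.3% in the FD control. Both probes of Hoxb9, a patterning gene of the trunk and spinal cord, were among them, at least 1.75-fold and 1.56-fold higher in FR. The control inputs differed in the same way for Hoxb9, since neither array of the FD control and both of the FR control were well above background. Olfr1276, an odorant receptor gene, was at least 1.66-fold higher in FR, with its control well above background on 1 FD array and 2 FR arrays.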
